A study of Mus musculus with 121 samples.

Results

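The 8 genes described here mark neutrophils, the short-lived white blood cells that enter inflamed tissue first. They are S100a8, S100a9, Csf3r, Cxcr2, Retnlg, Mmp9, Ngp and Camp, found by matching the Ensembl gene IDs of both count tables to these symbols. All 8 were present, out of 25759 genes in each table. Their levels were followed in every mouse in CPM, the reads of a gene divided by all counts of its library and scaled to the same total for each. The tissues of 1 mouse were joined by its number, which the labels write as PEP and 3 digits.

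RNA came from 2 organs, the liver and the gonadal fat pad. All animals were C57BL/6, and at the locus that the labels call PEP 3 genotypes were compared, knockout (KO), heterozygous (HET) and wild type (WT). From 8 weeks of age and for 18 weeks the mice ate standard chow with 10% of calories from lipid, a 45% high-fat diet (HFD), a diet named Control or a diet named Alios. On chow, livers of 5 WT, 8 HET and 5 KO animals were sequenced. The same 3 genotypes gave 8, 11 and 9 livers under HFD, 5, 4 and 1 under Control, and 6, 5 and 8 under Alios. The adipose libraries were 4 WT, 8 HET and 5 KO for chow, with 8, 11 and 9 for HFD, and 44 mice gave both tissues. The labels name no sex and do not say how the locus was disrupted, and the single KO liver on Control entered no comparison. Each library is 1 mouse, so p-values measure the spread between mice. That spread was estimated jointly over all groups of a fit and not within chow KO alone.

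Neutrophils are made in bone marrow under the growth factor G-CSF, whose receptor is Csf3r, and leave it by following CXC chemokines through the receptor Cxcr2. S100a8 and S100a9 form calprotectin, a metal-binding complex that fills the cytosol of mature neutrophils and is also made by monocytes and some epithelia. Ngp and Camp are granule proteins transcribed mainly while the cells still mature in the marrow, Retnlg is a secreted resistin-like protein of mature cells, and Mmp9 is a matrix-cutting gelatinase that neutrophils store in granules and macrophages also make. In a bulk tissue sample, fewer cells of a type and less RNA per cell cannot be told apart.

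Depth limited what could be seen. The 75 liver libraries held from 42692 to 8854246 counts (median 3191160), and the 45 adipose libraries from 4236655 to 6699887, so that 1 read was worth 0.313 CPM in the median liver library and 0.167 CPM in the median adipose library. In the shallowest, 1 Alios KO liver, 1 read was worth 23.4 CPM. Albumin, the main secreted hepatocyte protein, had a median of 79870 CPM in liver, and Adipoq, which encodes the adipocyte hormone adiponectin, had a median of 2523 CPM in adipose tissue against 0 CPM in liver. Pepd, which encodes prolidase and was taken as the targeted gene from knowledge of the study, ran from 0.485 to 3.04 CPM in chow KO liver against 37.7 to 46.2 CPM in chow WT liver. In adipose tissue it ran from 7.55 to 32.5 CPM in chow KO and from 56.6 to 103.2 CPM in chow WT. In HFD mouse PEP323, labelled HET, Pepd stood at 1.23 CPM in the liver library and 23.4 CPM in the adipose one, inside the HFD KO ranges. Markers of the epididymis, the duct organ that borders gonadal fat, summed to 13210 CPM in adipose tissue of chow KO mouse PEP301, to 13900 CPM in chow WT mouse PEP392 and to 11800 CPM in chow HET mouse PEP339. Hepatocyte markers summed to 40910 CPM in adipose tissue of HFD WT mouse PEP587.

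The calprotectin genes lie near each other on chromosome 3, S100a8 from 90668978 to 90670035 on the plus strand and S100a9 from 90692632 to 90695721 on the minus strand (GRCm38). They are shown here because their levels parted in adipose tissue, as described further on. The sequences are the bases just before each annotated gene start, from RefSeq's GRCm38.p6 promoter table, read 5′ to 3′ on the gene's strand. S100a8 is chr3:90668821-90668977, plus strand, and S100a9 is chr3:90695722-90695971, minus strand.
S100a8: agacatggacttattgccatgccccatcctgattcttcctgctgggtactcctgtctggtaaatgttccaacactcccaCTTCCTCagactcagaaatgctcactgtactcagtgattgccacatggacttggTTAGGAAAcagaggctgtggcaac
S100a9: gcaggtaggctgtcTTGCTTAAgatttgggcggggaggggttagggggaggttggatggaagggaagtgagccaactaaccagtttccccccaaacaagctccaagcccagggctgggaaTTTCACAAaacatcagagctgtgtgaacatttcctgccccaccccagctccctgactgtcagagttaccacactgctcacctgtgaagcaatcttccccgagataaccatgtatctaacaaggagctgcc
Capitals mark matches, on either strand, to TTNNGNAA, a C/EBP-like motif, and GAGGAAG, a PU.1-like motif, both named for factors of myeloid cells. S100a8 held 1 match of each and S100a9 held 2 of the first and 0 of the second. The search covered the 250 bases before RefSeq's own start of each gene, which for S100a8 lies inside the annotated gene, and only the part before the gene is printed. Of 32851 promoters, 36.8% held the first motif and 10.6% the second. The table matched 7 of the 8 members, and beyond this pair the first motif occurred in Retnlg (1 match) and Ngp (3 matches), the second in Csf3r (1 match). A match is a description of letters and not evidence of binding.

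In adipose tissue the highest level of every member was in chow KO mouse PEP569 or PEP592, and the other chow KO mice differed by gene. In most libraries outside chow KO the members were near the detection limit, apart from S100a8, Csf3r and Mmp9. S100a9, the larger calprotectin subunit by mass, stood at 0.631, 10.0, 13.4, 235 and 240 CPM in chow KO mice PEP358, PEP301, PEP346, PEP569 and PEP592. In chow WT it stood at 0.452, 1.06, 1.11 and 2.09 CPM, and in the 8 chow HET mice it ran from 0.52 to 2.19 CPM (median 0.675). In 4 of the 5 chow KO libraries S100a9 exceeded its level in all 40 libraries of the other groups, and mouse PEP358 lay inside the WT range, so the groups overlapped. Of the 2683 S100a9 reads in adipose tissue, 93.7% came from the 5 chow KO libraries.

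S100a8 in the same 5 mice stood at 5.68, 6.38, 5.35, 112 and 114 CPM, in the order just given. Only mice PEP569 and PEP592 exceeded the highest of the other 40 libraries, 30.1 CPM. Chow WT mice spread from 1.06 to 25.01 CPM, so 3 of the 5 chow KO mice lay within the WT range.

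The receptors followed S100a9. Csf3r stood at 12.1, 45.6, 38.6, 85.4 and 335 CPM in mice PEP358, PEP301, PEP346, PEP569 and PEP592, against 4.88, 13.8, 15.5 and 17.5 CPM in chow WT, and 4 of 5 chow KO libraries lay above all others. Cxcr2 had 0, 23, 14, 33 and 307 reads in those 5 mice (0, 3.49, 2.34, 7.79 and 54.0 CPM) and exactly 1 read in each chow WT mouse. Over the other 40 adipose libraries Cxcr2 never passed 4 reads.

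Of the products of mature and maturing cells, Ngp and Camp differed between mice PEP569 and PEP592 in adipose tissue. Retnlg was similar in both, 14.2 and 14.9 CPM, against at most 1.22 CPM in the other 3 chow KO mice and at most 0.784 CPM elsewhere. Ngp stood at 111 CPM in mouse PEP569 and 17.1 CPM in mouse PEP592, with 5 reads in mouse PEP301 and 0 in mice PEP346 and PEP358. Camp stood at 50.8 CPM in mouse PEP569 and 3.34 CPM in mouse PEP592. Together Ngp and Camp made up 24.8% of all member reads in adipose tissue of mouse PEP569 and 2.26% in mouse PEP592, whereas Cxcr2 had 0.0331 reads per S100a9 read in mouse PEP569 and 0.225 in mouse PEP592. In adipose tissue mouse PEP569 thus had more Ngp and Camp and less Cxcr2 relative to S100a9 than mouse PEP592. In liver the order was the other way round on far fewer reads: Ngp and Camp made up 4.93% of 142 member reads in mouse PEP569 and 8.42% of 273 in mouse PEP592, and Cxcr2 had 0.116 and 0.0787 reads per S100a9 read.

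**Figure D1:**
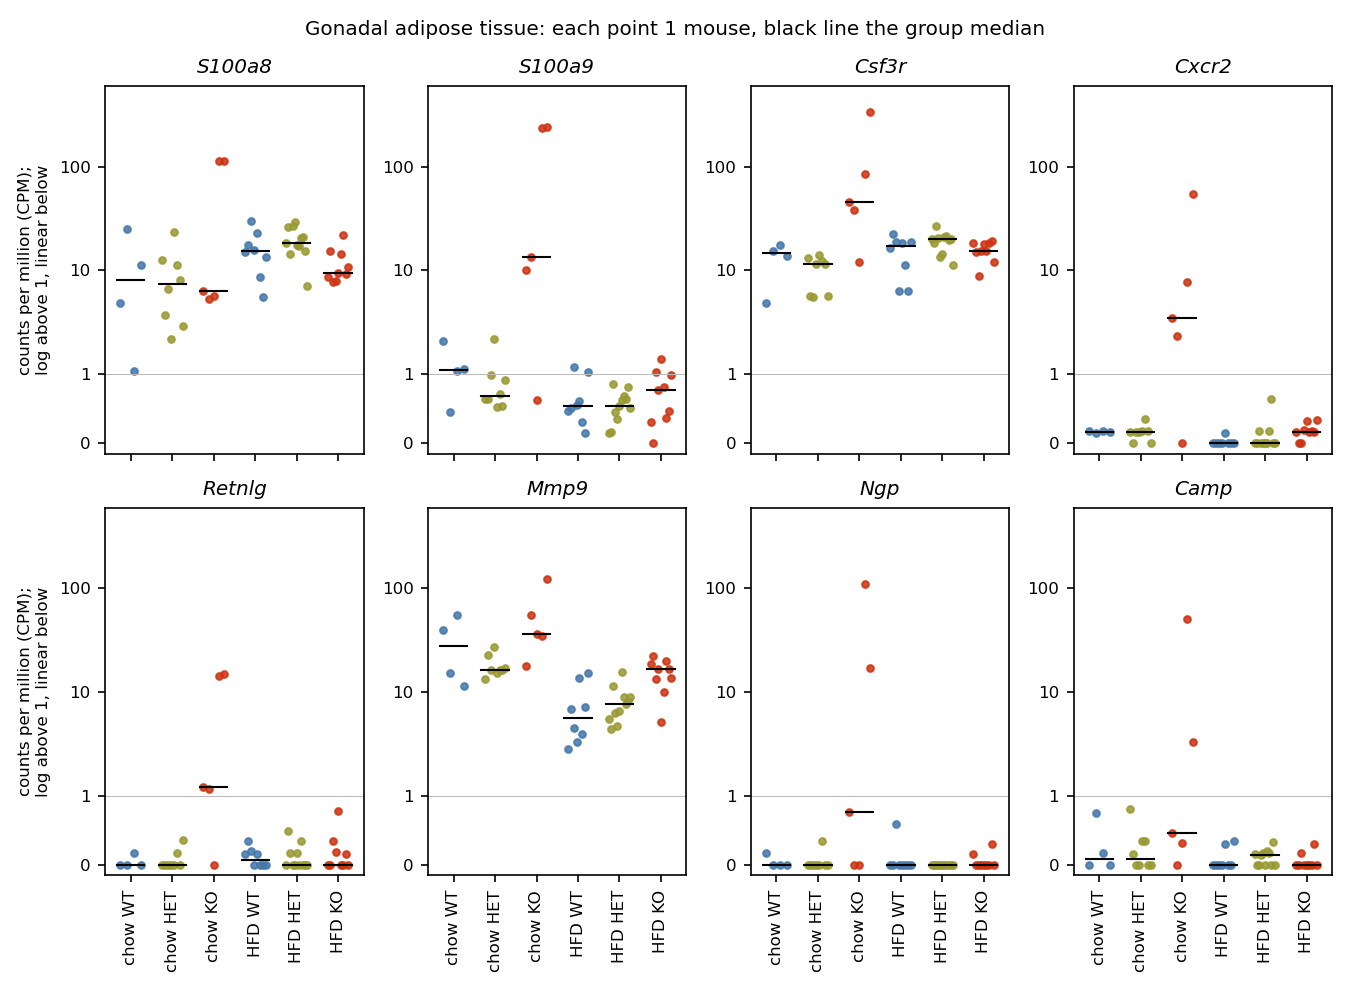
CPM of the 8 genes in gonadal adipose tissue, 1 point a mouse, by diet and genotype (x axis), with the group median as a black line and a y axis that is logarithmic above 1 CPM and linear below. The chow KO group holds the highest points of every gene, from 14.9 CPM for Retnlg to 335 CPM for Csf3r, while S100a8, Csf3r and Mmp9 are also present in all other groups.

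Tested across all genes with edgeR's quasi-likelihood test and Benjamini-Hochberg adjustment, 4 of the 5 members tested were higher in chow KO than in WT adipose tissue, where 8.85% of all 14536 genes tested were called higher. S100a9 rose by 6.28 ± 0.94 on the log2 scale (SE, adjusted p = 0.00011), Cxcr2 by 6.14 ± 1.17 (adjusted p = 0.00064), Csf3r by 2.94 ± 0.53 (adjusted p = 0.00042) and S100a8 by 2.12 ± 0.73 (adjusted p = 0.045). Mmp9 differed by 0.77 ± 0.46 and was not called (adjusted p = 0.25). Against HET, all 5 were called higher, with 18.0% of all genes called higher, from 1.48 ± 0.38 for Mmp9 to 6.62 ± 0.71 for S100a9. Cxcr2 entered the test only through chow KO libraries, which were the 4 that reached the filter's 1.67 CPM, and S100a9 reached it in 6 libraries, of which 4 were chow KO, so their presence among the tested genes is itself a result of those mice. Retnlg, Ngp and Camp were too low to be tested, and with the filter off their log2 differences against WT were 6.52 ± 1.48 (adjusted p = 0.0037), 8.48 ± 1.83 (adjusted p = 0.0034) and 5.20 ± 1.40 (adjusted p = 0.014), values that rest on 1, 1 and 6 reads in all WT mice. S100a8 was not called with the filter off (adjusted p = 0.058).

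Against WT these calls depended on mice PEP569 and PEP592. Leaving both out also left fewer chow KO mice in either tissue, which makes a call harder for any gene. Without them 0 of 6 B cell markers were called against WT in adipose tissue too, at a median log2 difference of 2.94. With both left out, a choice made after the data were seen, 0 members were called against WT by edgeR: S100a9 differed by 2.64 ± 0.70 (adjusted p = 0.082), Csf3r by 1.22 ± 0.38 (adjusted p = 0.15), Mmp9 by 0.22 ± 0.48 (adjusted p = 0.91) and S100a8 by -0.91 ± 0.64 (adjusted p = 0.62), a change of sign. Against HET, S100a9 (2.99 ± 0.57, adjusted p = 0.0052) and Csf3r (1.56 ± 0.32, adjusted p = 0.0062) were still called without them. With mouse PEP569 or mouse PEP592 alone left out, S100a9 and Csf3r were called against WT, S100a8 was not (it was called in 4 of 9 fits that left out 1 library, with an adjusted p of up to 0.21), and Cxcr2 no longer passed the filter. Mmp9 against HET was no longer called without mouse PEP592 (adjusted p = 0.086). In a fit of only the chow KO and WT libraries the fold changes were alike but no member was called (adjusted p = 0.32 for S100a9, Cxcr2 and Csf3r).

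**Figure D2:**
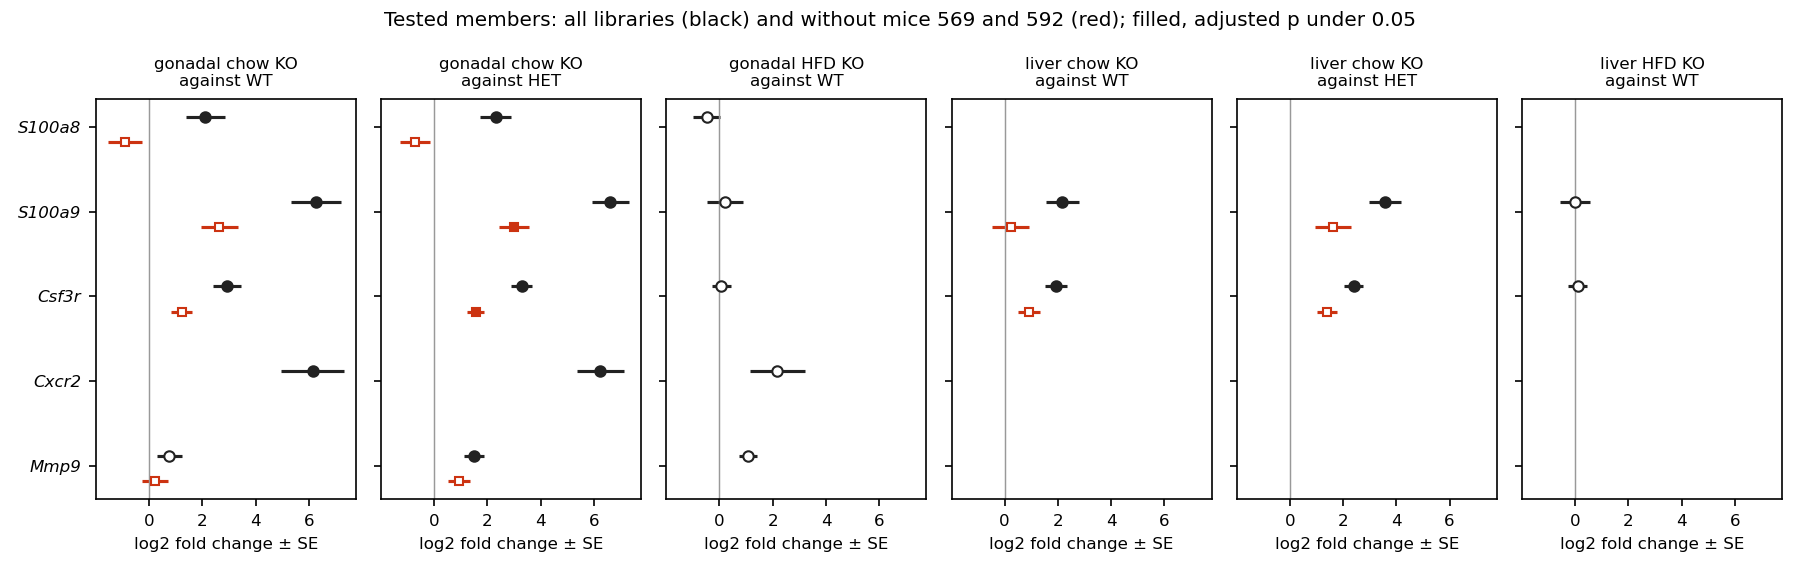
Log2 fold change ± SE (x axis) of the members tested (y axis) in 6 comparisons, with all libraries in black and, for the chow comparisons, without mice PEP569 and PEP592 in red, filled where the adjusted p is under 0.05. In adipose tissue S100a9 moves from 6.28 to 2.64 against WT and S100a8 crosses 0 when both mice are left out, and between KO and WT on HFD all points are open.

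In liver, mice PEP569 and PEP592 were again the highest of the chow KO mice for S100a8, S100a9 and Csf3r, at lower levels. S100a9 stood at 1.37, 2.12, 10.4, 32.7 and 43.2 CPM in chow KO mice PEP358, PEP356, PEP346, PEP569 and PEP592, and at 0.455, 0.961, 1.26, 2.58 and 9.88 CPM in chow WT. Csf3r stood at 6.31, 4.59, 24.1, 38.8 and 44.1 CPM in those chow KO mice and from 1.36 to 8.27 CPM in chow WT. Mice PEP346, PEP569 and PEP592 lay above all 70 liver libraries of other groups for S100a8, S100a9, Csf3r and Cxcr2, while mice PEP356 and PEP358 lay among them. S100a8 stood at 0.822, 1.77, 4.99, 20.5 and 21.8 CPM in that order of mice. Ngp (5 and 13 reads) and Camp (2 and 10 reads) were detected in chow KO liver only in mice PEP569 and PEP592, and Cxcr2 had at most 7 reads in any chow KO liver.

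**Figure D3:**
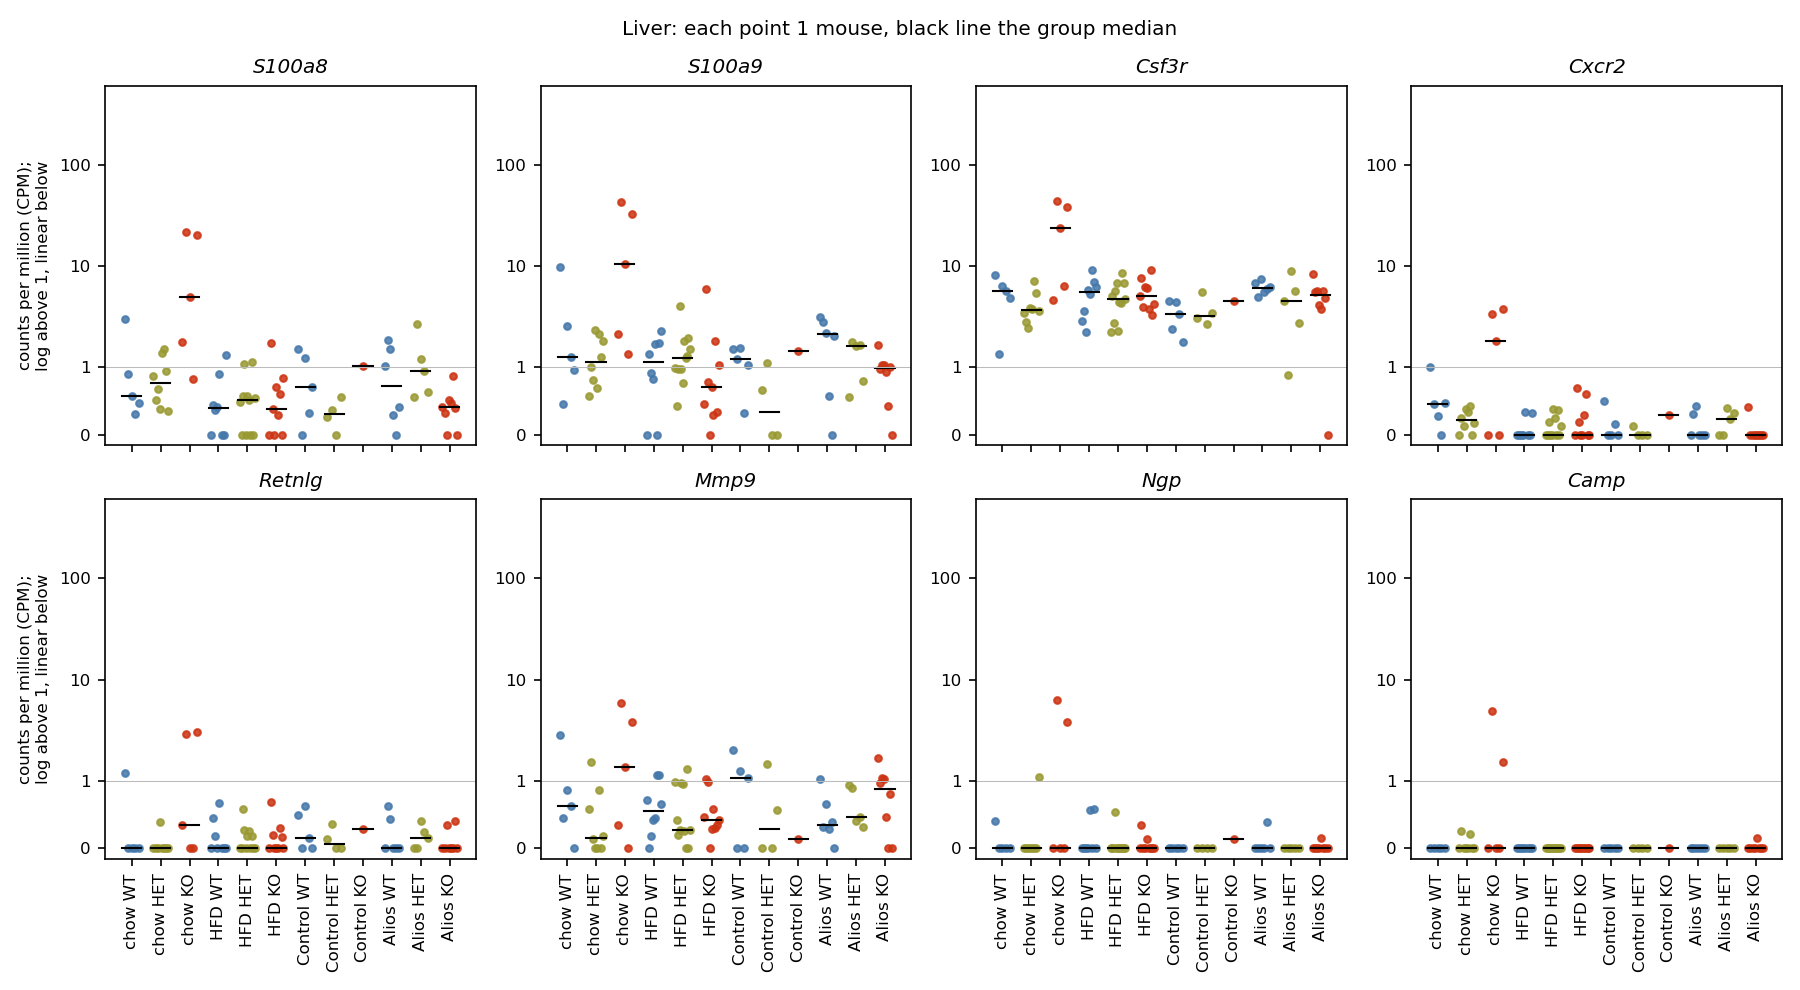
CPM of the 8 genes in liver, 1 point a mouse, by diet and genotype (x axis), with the group median as a black line and a y axis that is logarithmic above 1 CPM and linear below. S100a9 reaches 43.2 CPM in chow KO and at most 9.88 CPM in any other group, and most other points lie near 1 CPM or at 0 except for Csf3r.

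In liver 2 members passed the filter, S100a9 and Csf3r. Both were called higher in chow KO than in WT, where 2.47% of the 11064 genes tested were called higher: Csf3r rose by 1.92 ± 0.41 (edgeR, adjusted p = 0.0059) and S100a9 by 2.17 ± 0.63 (adjusted p = 0.042). Both were also called higher against HET, with 7.91% of genes called higher, by 2.40 ± 0.36 and 3.57 ± 0.60. S100a9 reached the filter in 6 libraries, of which 3 were chow KO. Without mice PEP569 and PEP592 neither was called: against WT, Csf3r differed by 0.91 ± 0.42 (adjusted p = 0.54) and S100a9 by 0.23 ± 0.70 (adjusted p = 0.95), and against HET the adjusted p were 0.098 and 0.25. Without mouse PEP592 alone the adjusted p against WT were 0.091 and 0.31, S100a9 was called in only 3 of 10 fits that left out 1 library, and in a fit of only the 2 groups no member was called (adjusted p = 0.22 for Csf3r). With the filter off S100a8 was called against WT in liver (2.79 ± 0.64, adjusted p = 0.013) and S100a9 was not (adjusted p = 0.059).

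For S100a8, S100a9, Csf3r and Cxcr2, chow HET mice stayed below the highest chow KO mice in both tissues and overlapped with the lower ones. By edgeR no member was called between HET and WT on chow, 0 of 2 in liver and 0 of 5 in adipose tissue, with 0.0% of all genes called in each. In chow HET adipose tissue the highest S100a9 value was 2.19 CPM and the highest Cxcr2 count 2 reads, and in chow HET liver they were 2.34 CPM and 2 reads.

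On HFD no member was called between KO and WT. In adipose tissue of the 9 HFD KO mice S100a9 ran from 0 to 1.41 CPM (median 0.766), against 0.151 to 1.17 CPM (median 0.533) in 8 WT mice, and the groups overlapped. By edgeR 0 of 5 members were called between HFD KO and WT in adipose tissue, where 0.0344% of all genes were called. At an unadjusted p under 0.05 there were 2 members, Mmp9 (1.07 ± 0.35, adjusted p = 0.30) and Cxcr2 (2.18 ± 1.04, from 9 reads in KO against 1 in WT, adjusted p = 0.46). In liver on HFD, 0 of 2 members were called between KO and WT with 1.72% of all genes called, and Csf3r differed by 0.09 ± 0.35.

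The diet effect in KO mice was the reverse of the chow difference, with which it shares the chow KO libraries. From chow to HFD all 5 members tested fell in KO adipose tissue, with 20.6% of all genes called lower, with log2 changes from -1.79 ± 0.37 for Mmp9 to -7.04 ± 0.69 for S100a9. Both members tested fell in KO liver, with 6.19% of genes called lower. Csf3r changed by -2.07 ± 0.35 and S100a9 by -3.79 ± 0.59 there. The difference between the KO effects on HFD and on chow was itself called in adipose tissue for 2 of 5 members, with 4.66% of genes called lower: S100a9 at -6.06 ± 1.11 (adjusted p = 0.0012) and Csf3r at -2.87 ± 0.62 (adjusted p = 0.0043). In liver 0 of 2 were called, with 0.145% of genes called, Csf3r at -1.82 ± 0.54 (adjusted p = 0.085). Without mice PEP569 and PEP592 no member was called in either tissue, S100a9 in adipose tissue at -2.43 ± 0.85 (adjusted p = 0.24). Of the 5 adipose members, S100a9, Csf3r and Mmp9 still fell from chow to HFD in KO mice without them, while S100a8 changed sign to 1.05 ± 0.58 (adjusted p = 0.19). The share of all genes called lower in the fit without those mice is not reported here.

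Mmp9 moved with diet in every genotype of adipose tissue. Its median was 27.6, 16.2 and 36.1 CPM in chow WT, HET and KO mice and 5.66, 7.73 and 16.7 CPM on HFD. It was the only member called lower on HFD in WT, by 2.09 ± 0.41 (adjusted p = 0.013), where 2.97% of genes were called lower, and in HET, by 1.28 ± 0.32 (adjusted p = 0.0023), where 18.8% were. In WT mice it was no longer called without mouse PEP392 (adjusted p = 0.090), the library with epididymis markers, in a fit of only the 2 groups (adjusted p = 0.22) or with the replicate number as a block (adjusted p = 0.055). In liver Mmp9 was near its floor, with a highest group median of 1.36 CPM, in chow KO.

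In the other comparisons no member was called by edgeR. These were HFD against chow in WT liver, 0 of 2 members with 1.87% of genes called, and in HET liver, 0 of 2 with 14.2%. Between HFD KO and HET they were 0 of 2 in liver with 2.39% and 0 of 5 in adipose tissue with 0.0138%, and between HFD HET and WT 0 of 2 with 0.00904% and 0 of 5 with 0.00688%. In the fit of Alios and Control livers Csf3r alone was tested and was not called between Alios KO and WT (0.224% of genes called), Alios HET and WT (0.00862%), Alios KO and HET (0.285%), Control HET and WT (0.00862%), Alios and Control in WT (0.0%) or Alios and Control in HET (0.19%). Its group medians there lay between 3.25 and 6.05 CPM. Of the 17 comparisons in which edgeR called no member, 6 had a member at an unadjusted p under 0.05, among them S100a9 for chow HET against WT in liver, and DESeq2 called a member in 1, Csf3r for the difference of KO effects in liver.

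Ordered by group mean, chow KO came first in both tissues for S100a8, S100a9, Csf3r and Mmp9. In adipose tissue S100a9 followed the order chow KO (99.9 ± 125.9 CPM, SD, n = 5), chow WT (1.18 ± 0.678, n = 4), chow HET (0.891 ± 0.548, n = 8), HFD KO (0.683 ± 0.438, n = 9), HFD WT (0.602 ± 0.346, n = 8) and HFD HET (0.524 ± 0.233, n = 11). Csf3r stood at 103.4 ± 132.2 CPM in chow KO and then at 18.8 ± 4.32 in HFD HET, 15.7 ± 3.46 in HFD KO, 14.8 ± 6.10 in HFD WT, 12.9 ± 5.58 in chow WT and 9.90 ± 3.64 in chow HET. S100a8 stood at 48.7 ± 58.8 CPM in chow KO, and its next group was HFD HET with 19.4 ± 6.36. The SD of chow KO was larger than its mean for these 3 genes, so its gap to the next group did not exceed the spread. Among these 4 genes the only neighbours in either tissue whose means were farther apart than the larger SD were HFD KO (15.2 ± 5.30) and HFD HET (8.03 ± 3.24) for Mmp9 in adipose tissue. In liver S100a9 ran from 18.0 ± 18.9 CPM in chow KO over 3.03 ± 3.91 in chow WT to 0.442 ± 0.540 in Control HET (n = 4), and Csf3r from 23.6 ± 18.1 in chow KO over 6.13 ± 0.870 in Alios WT (n = 6) to 3.29 ± 1.21 in Control WT (n = 5). The single Control KO liver had 1.47 CPM of S100a9 and 4.54 CPM of Csf3r, inside the range of the other groups.

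The chow KO mice highest in S100a9, PEP569 and PEP592, were so in both tissues. Over the 44 mice with both, with group means removed, S100a9 in liver and adipose tissue was correlated on the log2(CPM + 0.5) scale (Pearson r = 0.694, permutation p = 2e-05, adjusted p = 0.00054 over 27 relations; Spearman rho = 0.574, adjusted p = 0.014), and r was 0.596 without the 2 mice farthest from the median liver level. Without the chow KO mice, an alternative chosen after the data were seen, r was 0.559 over 40 mice (adjusted p = 0.016) and rho 0.476 (adjusted p = 0.066), and S100a9 had at most 14 reads in any adipose library outside chow KO. For the other 4 members with reads enough, r was 0.679 for Cxcr2 (adjusted p = 0.077), 0.466 for Csf3r (adjusted p = 0.17), 0.391 for S100a8 (adjusted p = 0.32) and 0.164 for Mmp9 (adjusted p = 0.56). Without the chow KO mice r was 0.371 for Cxcr2, 0.199 for Csf3r, 0.040 for S100a8 and 0.059 for Mmp9. Their adjusted permutation p were 0.14, 0.52, 0.94 and 0.94. Within single groups of 8 to 11 mice no relation had an adjusted p under 0.05, and S100a9 gave r of 0.379 in HFD HET, 0.637 in HFD KO, 0.398 in HFD WT and 0.398 in chow HET. The 4 chow KO mice with both tissues were too few for a correlation of their own. Their S100a9 pairs, liver then adipose, were 1.37 and 0.631 CPM in mouse PEP358, 10.4 and 13.4 in mouse PEP346, 32.7 and 235 in mouse PEP569, and 43.2 and 240 in mouse PEP592.

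**Figure D4:**
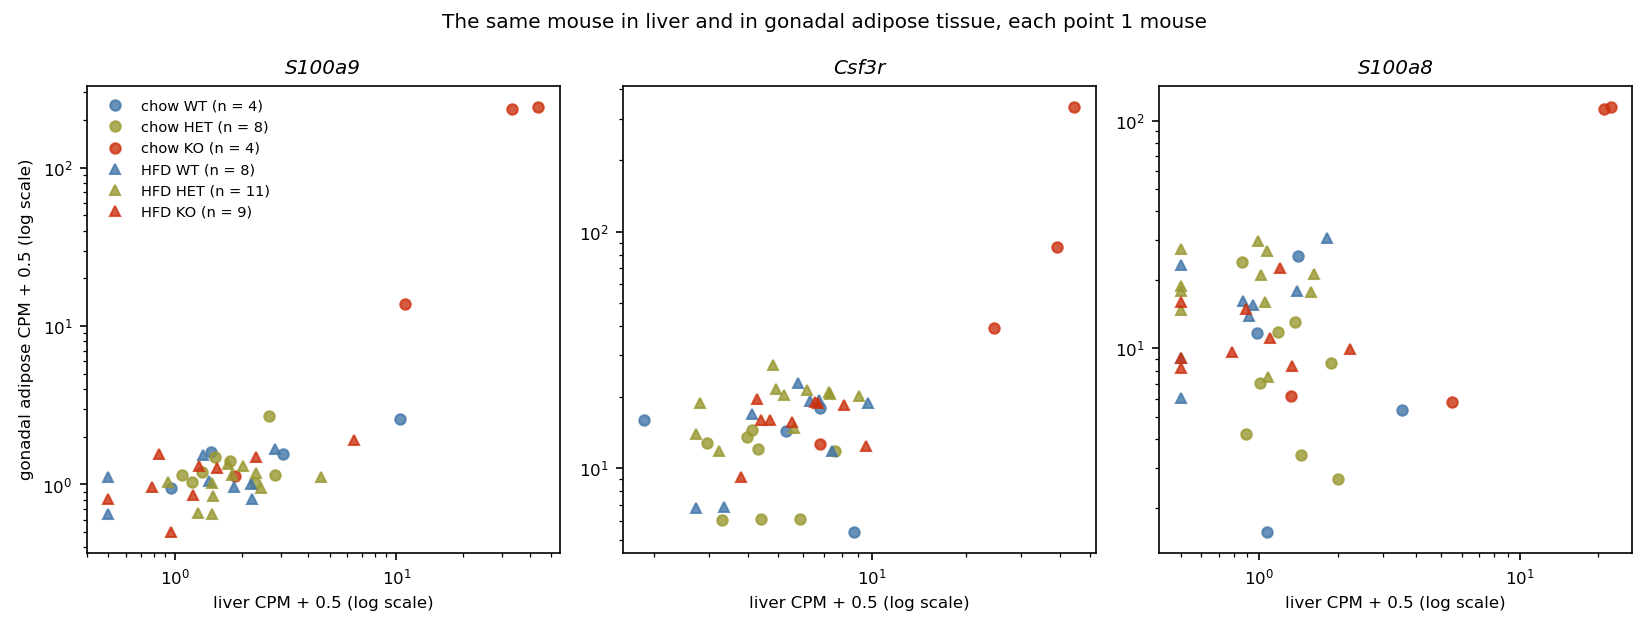
CPM + 0.5 in liver (x axis, log scale) against gonadal adipose tissue of the same mouse (y axis, log scale) for S100a9, Csf3r and S100a8, 1 point a mouse, by diet (shape) and genotype (colour). Mice PEP569 and PEP592 stand at the upper right for all 3 genes, and mouse PEP346 follows them for S100a9 (10.4 and 13.4 CPM) and Csf3r but not for S100a8.

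Outside the chow KO mice the calprotectin genes parted in adipose tissue. Over 40 adipose libraries S100a8 had 3337 reads and S100a9 had 170, so that S100a8 gave 95.2% of the reads of the pair, and it had more reads than S100a9 in 38 libraries and as many in 2. Over the 75 liver libraries S100a8 had 266 reads and S100a9 had more, so that the share was 33.6%. Per exon base, the S100a8 level was 14.8 times that of S100a9 in those adipose libraries and 0.38 times in liver. The share was higher in adipose tissue than in liver in 38 of the 41 mice with reads of the pair in both.

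The chow KO adipose libraries resembled liver in this ratio. The share of S100a8 was 28.6% in mouse PEP346 (95% Wilson interval 21.0 to 37.5), 32.2% in mouse PEP592 (30.2 to 34.2), 32.3% in mouse PEP569 (30.0 to 34.8) and 38.9% in mouse PEP301 (30.2 to 48.3), and 90% (77.0 to 96.0) in mouse PEP358. Thus the 4 mice with more than 60 S100a9 reads had shares near that of liver, and the mouse with 4 such reads had the share of the other groups. The intervals cover counting error only. By group, the pooled share was 97.4% in HFD HET, 96.4% in HFD WT, 94.4% in HFD KO, 90.6% in chow HET and 90.6% in chow WT adipose tissue.

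**Figure D5:**
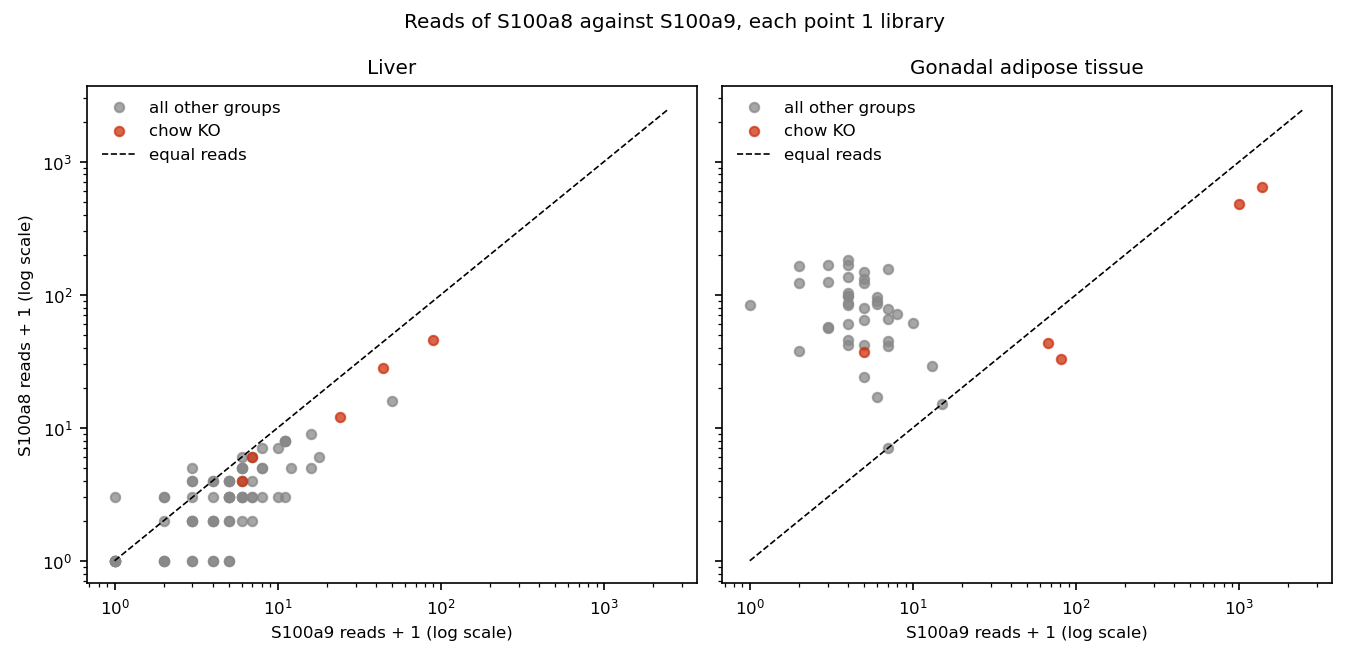
Reads + 1 of S100a9 (x axis, log scale) against S100a8 (y axis, log scale) in each library of liver and of gonadal adipose tissue, chow KO in red, with a dashed line of equal reads. In adipose tissue no library outside chow KO falls below the line, while 4 of the 5 chow KO libraries do, as do 58 of the 69 liver libraries with reads of the pair.

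The tissues were also compared within mice. With the mouse as a block and the mean of the 6 group effects tested, 5 of 7 members were called between gonadal adipose tissue and liver, with 90.1% of the 14679 genes tested called either way and a median log2 difference of 0.25 over all genes. Mmp9 (3.70 ± 0.19), S100a8 (2.82 ± 0.19) and Csf3r (0.64 ± 0.12) were higher in adipose tissue, and S100a9 (-1.35 ± 0.17) and Cxcr2 (-1.11 ± 0.33) were higher in liver. Retnlg (-0.74 ± 0.47) and Ngp (-0.88 ± 0.55) were not called. The tissue effect of S100a9 ran from -2.26 to -1.42 in the other 5 groups and was 0.88 ± 0.38 in chow KO, and that of S100a8 ran from 1.15 ± 0.46 in chow KO to 4.18 ± 0.38 in HFD HET. Without mice PEP569 and PEP592 the same 5 members were called with the same signs. These effects compare tissues scaled to each other by TMM, and with 90.1% of genes called a call here is the common case.

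Other genes of neutrophils moved in the same comparison. The list of 38 further neutrophil genes had 27 tested in adipose tissue, of which 15 were called higher and 1 lower in chow KO than in WT, with a median log2 difference of 1.63 against -0.03 over all genes. Of all genes tested, 8.85% were called higher in chow KO than in WT adipose tissue and 2.47% in liver. Slfn4 (3.86 ± 0.64) and the interleukin gene Il1b (4.17 ± 0.75) were among the 3 with the smallest adjusted p, and the 1 gene called lower, Anxa1, which encodes annexin A1, fell by 1.09 ± 0.27 (named after its values were seen). Ly6g, the surface antigen that defines mouse neutrophils, had 9 reads in mouse PEP569, 12 in mouse PEP592, 1 in mouse PEP301 and 0 in mice PEP346 and PEP358, and 0 in all chow WT adipose libraries. In liver 5 of 13 tested were called higher and 0 lower, among them Cybb (1.51 ± 0.37), a part of the oxidase that makes superoxide, and Lcn2 (5.08 ± 1.32), an iron-siderophore binder that hepatocytes also make under inflammation. Lcn2 in chow KO liver stood at 6.58, 9.19, 519.4, 1878 and 1933 CPM in mice PEP358, PEP356, PEP346, PEP569 and PEP592, the order of S100a9. Against HET the counts were 21 higher and 1 lower of 27 in adipose tissue and 9 higher of 13 in liver. Without mice PEP569 and PEP592, 2 of 26, Slfn4 among them, were called higher against WT in adipose tissue, with a median of 0.37, and 5 of 26 against HET, while 0 of 13 were called in liver against either.

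Genes of earlier granulocyte stages were counted apart. Of 9 such genes, 4 were tested in adipose tissue and 3 were called higher in chow KO than in WT: Serpinb1a (1.86 ± 0.35), the repressor Gfi1 (2.0 ± 0.66) and Elane, which encodes neutrophil elastase (2.13 ± 0.71). In that comparison 8.85% of all genes tested were called higher. The summed level of the 9 genes was 239 CPM in mouse PEP569, 131 in mouse PEP592 and 29.3 to 56.2 in the other chow KO mice, against 17.1 to 42.0 in WT. Mpo, which encodes myeloperoxidase and was picked out after its values were seen, had 112 reads in mouse PEP569, 28 in mouse PEP592 and at most 2 in the other 3, and 3 reads in 1 chow WT mouse. With mice PEP569 and PEP592 left out, 0 of 4 were called in adipose tissue against WT or HET. In liver 0 of 3 were called against WT. Against HET in liver, Prtn3 was called higher (4.71 ± 0.97) and Serpinb1a lower (-1.32 ± 0.46), and 0 of 3 were called without mice PEP569 and PEP592. In liver too Mpo was seen in mice PEP592 (11 reads) and PEP569 (4 reads) and in no other chow KO mouse.

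Signals that recruit neutrophils were called higher in adipose tissue of chow KO than of WT for 7 of 11 tested of 17, and 0 were lower. Of all genes tested, 8.85% were called higher there and 2.47% in liver. Only 9 of the 11 signals passed the filter without mice PEP569 and PEP592, so testing all 11 depended on those mice. Icam1, the endothelial adhesion receptor, rose by 1.60 ± 0.31 and the Cxcr2 ligand Cxcl1 by 3.25 ± 0.65, and Il1b, which also stands in the list of neutrophil genes, was the remaining gene of the 3 with the smallest adjusted p. In liver 1 of 5 was called higher, Icam1 by 1.60 ± 0.34. Leaving mice PEP569 and PEP592 out, 0 of 9 were called against WT in adipose tissue and 2 of 9, Icam1 and Il1b, were called higher against HET, while 0 of 5 were called in liver against either. Of 6 sensors of calprotectin and formyl peptides, 4 were tested in adipose tissue. The formyl peptide receptor Fpr1, also in the neutrophil list, was the 1 called higher against WT, by 4.19 ± 1.01, while 0 of 3 were called in liver against WT. Against HET, Fpr1 (4.05 ± 0.77) and Ager (1.20 ± 0.29) were called higher and Cd36 (-0.89 ± 0.27) lower in adipose tissue. In liver, Fpr1 (1.27 ± 0.41) was called higher and Cd36 (-1.06 ± 0.36) lower against HET. Without mice PEP569 and PEP592 only 3 of the 4 sensors passed the filter in adipose tissue, so testing all 4 depended on those mice. Then 0 of 3 sensors were called against HET in either tissue. In WT mice Ltf, a secondary granule gene that was called lower on HFD (log2 change -5.77 ± 1.63), had 1203 of its reads in chow WT mouse PEP392, whose library holds epididymis markers, and at most 3 in the other 3.

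Markers of other cells moved in the same libraries. In adipose tissue of chow KO against WT, 6 of 6 B cell, 5 of 6 monocyte and 6 of 14 macrophage markers were called higher, and in liver 10 of 14 macrophage and 2 of 4 monocyte markers were. Of all genes tested, 8.85% were called higher in adipose tissue and 2.47% in liver. The summed macrophage markers were 2690, 5864, 4399, 7677 and 14800 CPM in adipose tissue of mice PEP358, PEP301, PEP346, PEP569 and PEP592, against 1266 to 5714 CPM in WT. The summed B cell markers were 28.5, 695, 332.5, 2484 and 646 CPM in the same order of mice, against 15.9 to 67.7 CPM in WT, so mouse PEP301 stood above mouse PEP592. Adipocyte markers summed to 21710, 8135, 27430, 4926 and 9519 CPM in adipose tissue in that order of mice, against 13290 to 25910 CPM in WT. Mouse PEP301, whose library holds epididymis markers, thus also lay below the WT range. Hepatocyte markers in liver summed to 107300, 104400, 64430, 48000 and 37780 CPM in mice PEP358, PEP356, PEP346, PEP569 and PEP592, against 78000 to 121100 CPM in WT. In liver mouse PEP346 thus lay below the WT range together with mice PEP569 and PEP592, while its adipocyte markers in adipose tissue lay above the WT range. In adipose tissue red blood cell markers were not higher with the members: they summed to 362 CPM in mouse PEP569 and 742.5 CPM in mouse PEP592, below the WT range of 828 to 1890 CPM, and 0 of 5 were called. In liver they summed to 252.2, 388, 534.8, 660.9 and 340.4 CPM in mice PEP358, PEP356, PEP346, PEP569 and PEP592. The WT range there was 320.8 to 715.8 CPM. When mice PEP569 and PEP592 were left out, 0 of the B cell, monocyte and macrophage markers were called against WT in either tissue. Against HET, 6 of 6 B cell markers were still called higher in adipose tissue, with a median log2 difference of 2.97 (2.94 against WT), as were 1 monocyte marker there, Chil3, and 1 macrophage marker in liver, Tyrobp (both named after their values were seen). The part of these cells in the levels of Csf3r, Mmp9 and the calprotectin genes was not tested.

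The genes most like the members were those with the highest r to the summed CPM of all 8. Over 75 liver libraries with group means removed, the highest Pearson r of log2(CPM + 0.5) were those of Pik3cd (0.836), Pilra (0.836), Pirb (0.833), Rac2 (0.825) and Cd68 (0.820), and over 45 adipose libraries those of Adamts15 (0.837), Il1r2 (0.826), Il4ra (0.821), Pim1 (0.819) and Grk2 (0.819). Without the chow KO libraries, a choice made after the values were seen, Adamts15 was again first in adipose tissue (0.737) and the other 4 were not among the first 10, while in liver Pik3cd, Pilra and Rac2 were among the first 5 and Pirb and Cd68 were not among the first 10. Libraries share depth and cell makeup, so these are descriptions. In adipose tissue without chow KO, S100a8 was most like Tph2 (0.856), Otop1 (0.850) and Lipf (0.831), whereas its r with Csf3r was 0.380 and with Mmp9 -0.375, a comparison chosen after the values were seen.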

How the data were processed

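Poly(A) RNA with a RIN above 7 was made into stranded single-end libraries with 50-base reads, per the labels' protocols. The authors deposited whole-number read counts per gene, 1 table a tissue, for 25759 Ensembl genes, of which 25723 matched a symbol. The submitters' processing notes name STAR 2.5.1b, featureCounts 1.5 and, as genome build, GRCm38.p5, and the strand setting of the counting is not given in the sources used here, but no member overlaps another gene in the GRCm38 annotation. Of 121 labelled samples, 120 had a count column, and 1 further column matched no sample and was not used. Libraries held 42692 to 8854246 counts in liver and 4236655 to 6699887 in adipose tissue, and depth limits every gene near 1 read. Replicates were distinct libraries: the smallest chi-square per degree of freedom between 2 of a group was 3.36 in liver and 3.90 in adipose tissue.

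CPM used raw library totals. Genes passing edgeR's filterByExpr (minimum count 10, minimum total 15) were scaled by TMM and tested with the quasi-likelihood F test (edgeR 4.0.16, R 4.3.3), 1 fit for chow and HFD livers, 1 for Control and Alios livers and 1 for adipose tissue, with Benjamini-Hochberg adjustment over all genes tested and a threshold of 0.05. Tissues were compared in 1 fit with the mouse as a block. Correlations used log2(CPM + 0.5) with two-sided permutation tests of 100000 resamples, drawn within groups for pooled values and exact below 10 mice (numpy 2.4.6). The scripts were tested on simulated data. Alternatives were DESeq2 1.42.0, no filter, a stricter threshold, fits of only the groups compared, a block for the replicate number, a covariate for the run of mouse numbers, each replicate left out, and, chosen after the data were seen, mice PEP569 and PEP592 left out. Named were all 8 members, up to 3 called genes of each list with the smallest adjusted p in a comparison, the 5 genes most like the summed members, and Pepd. The members and lists were chosen with earlier results of these data known. Some genes of the lists are counted but not reported by name here.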

Additional observations from a re-analysis of the deposited data

Results flagged for a closer look

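Over 44 pairs of a member and a group of 4 to 10 libraries, the highest library stood apart by Dixon's test at the 95% level in 8. Only pairs whose highest count was at least 10 entered. The test's rate of about 1 in 20 holds for normally distributed values, and CPM of low counts need not be so. The same mice recur among the 8, so these flags are not independent. Of these, 4 were in chow KO adipose tissue: Csf3r at 335.1 CPM in mouse PEP592 (next highest 85.4), Cxcr2 at 53.97 CPM in mouse PEP592 (next 7.79), Ngp at 110.7 CPM in mouse PEP569 (next 17.1) and Camp at 50.75 CPM in mouse PEP569 (next 3.34). Csf3r and Cxcr2 thus stood apart in mouse PEP592, and Ngp and Camp in mouse PEP569. In chow WT liver, mouse PEP392 stood apart for both calprotectin genes, S100a8 at 3.024 CPM (next 0.909) and S100a9 at 9.879 CPM (next 2.58). S100a9 stood apart in 1 HFD KO liver at 5.91 CPM (next 1.82) and in adipose tissue of chow HET mouse PEP355 at 2.186 CPM (next 0.984).

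The KO effect differed between HFD and chow in adipose tissue by the interaction test of edgeR for S100a9 (-6.06 on the log2 scale) and Csf3r (-2.87). Without mice PEP569 and PEP592 the adjusted p were 0.24 and 0.29.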

How the results depend on the processing

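Counts of members called stayed within 1.5 times under TMM against RLE size factors and without HET mouse PEP323. With DESeq2 they became 2 for HFD against chow in HET adipose tissue (from 1) and, in liver, 1 for the difference of KO effects (from 0). At an adjusted p under 0.01 they were 0 for HFD against chow in WT adipose tissue and 1 for chow KO against WT in liver. In fits of only the groups compared they were 3, 3 and 0 for HFD against chow in HET, KO and WT adipose tissue, 3 and 0 for chow KO against HET and WT there, and 1, 1 and 0 for HFD against chow in KO, chow KO against HET and chow KO against WT in liver, where fewer samples and other filters apply. With no filter they were 8 and 8 in adipose tissue and 6 and 6 in liver for HFD against chow in KO and chow KO against HET. The members so added in adipose tissue were Retnlg, Ngp and Camp. Chow KO libraries hold 86.49, 98.45 and 88.85% of their reads there, so these calls follow from that group. The shares of all genes called in these alternative fits are not reported here.

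Replicate numbers did not pair the samples: the median correlation of same-numbered samples' deviations was -0.014 in chow and HFD liver, 0.017 in Control and Alios liver and -0.014 in adipose tissue. With the replicate block the count was 2 for HFD against chow in HET adipose tissue, 0 in WT, and 1 for chow KO against WT in liver, and with a covariate for the run of mouse numbers it was also 1 for the last. 

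Without mice PEP569 and PEP592 (chosen after seeing the data) the counts were 3, 2, 0 and 0 in adipose tissue for HFD against chow in KO, chow KO against HET, chow KO against WT and the difference of KO effects, and 0, 0 and 0 in liver for the first 3. S100a8 then changed sign: -0.91 for chow KO against WT, -0.72 against HET, 1.05 for HFD against chow in KO and 0.44 for the difference.

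With each replicate left out, counts ran from 3 to 5 for HFD against chow in KO adipose tissue, from 0 to 1 in WT, from 3 to 5 for chow KO against HET, from 2 to 4 against WT, from 0 to 3 for chow KO against WT in liver and from 0 to 1 for the difference in liver. Retnlg between tissues ranged from -1.03 to 0.0293 when single replicates were left out, the last without chow WT adipose replicate 2 (mouse PEP392).

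Without the 2 mice farthest from the median liver level, r between tissues was 0.194 for S100a8, 0.441 for Cxcr2 and 0.0200 for Mmp9 over all groups, and changed sign to -0.00577 for S100a9 and -0.112 for Csf3r in HFD WT and to -0.698 for Cxcr2 and -0.746 for Mmp9 in chow HET. With a pseudocount of 0.1, Cxcr2 had r = 0.597 and an adjusted permutation p of 0.043, and S100a9 without chow KO mice an adjusted permutation p of 0.063. The cause of these moves was not tested. One read was worth 0.313 CPM in the median liver library, so changes of Ngp, Camp, Retnlg and Cxcr2 below that were not detectable there.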
